A study of Homo sapiens with 2 samples.

Results

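TC71 is an established Ewing sarcoma cell line, and the cells described here are the 1729 barcodes of its library, of 8468, with at least 5000 unique molecular identifiers (UMIs, each a tagged RNA molecule), at least 2000 genes and at most 15% of UMIs from mitochondrial genes. The series as held here has 2 droplet libraries, 1 of TC71 and 1 of the Ewing sarcoma line CHLA9, with 13545 barcodes in all, of which 6253 passed the same limits. TC71 was grown in RPMI-1640 with 10% fetal bovine serum, and CHLA9 in IMDM with 20% heat-inactivated serum and 1% insulin, transferrin and selenite, both with an antibiotic and antimycotic mix. Both libraries were made with a kit that reads the 3′ end of transcripts and sequenced on the HiSeq 3000, and CHLA9 was also sequenced on the NovaSeq. Line, medium and sequencing therefore cannot be told apart, and with 1 library per line there was no replicate check and no test between the lines.

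Ewing sarcoma is driven by a fusion of EWSR1 with an ETS factor gene, most often FLI1. The fusion protein binds the letters GGAA, especially in tandem repeats, and switches many genes on while silencing others. The cell in which the tumour starts is debated, with neural crest, neural progenitor and mesenchymal stromal cells among the candidates, and Ewing cells carry features of several of these lineages at once.

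The TC71 cells held 58355173 UMIs, with a median of 33370 per cell (range 5001 to 88563), 6047 genes per cell and 9.05% mitochondrial UMIs. The 4524 CHLA9 cells had medians of 34656 UMIs, 6532 genes and 7.59%. The limits kept 20.4% of the TC71 barcodes and 89.1% of the 5077 CHLA9 barcodes. The libraries shared 16 barcodes, 3 of them among kept cells. Summed levels are UMIs per 1000000 (CPM) with exact 95% Poisson intervals, and the interval of a share of cells is the exact Clopper-Pearson one at the same level. These intervals describe counting error and nothing else. Since UMIs tag the 3′ end, levels were not scaled by transcript length. Genes on the X and Y chromosomes were left out.

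The library was described by 4 marker genes, which were known from earlier results of these data, so their levels are a description and no independent check of the label. MGST1 (ENSG00000008394), a microsomal glutathione transferase on chr12:16347142-16609259 of GRCh38, stood at 263 CPM (258 to 267) in TC71 and 0.126 CPM (0.0788 to 0.190) in CHLA9. LY6K (ENSG00000160886), a surface protein of the LY6 family known from testis, stood at 143 CPM (140 to 146) against 0.0800 CPM (0.0437 to 0.134). RNF212 (ENSG00000178222), a factor of meiotic crossing over on chr4:1056250-1113564, stood at 115 CPM (112 to 118) against 3 UMIs in the whole CHLA9 library. S100A10 (ENSG00000197747), the partner of annexin A2, stood at 85.9 CPM (83.6 to 88.4) against 2.80 CPM (2.56 to 3.06).

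The share of cells with a UMI of each marker was read at equal depth. Every TC71 cell belongs to 1 line, so the library holds no cells that should lack these genes and the share from free RNA was not measured. At an equal depth of 10000 UMIs, to which 1670 TC71 and 4510 CHLA9 cells could be thinned, MGST1 was found in 90.9% of TC71 cells (89.4 to 92.2) and in 0.0665% of CHLA9 cells (0.0137 to 0.194). LY6K was found in 71.4% (69.2 to 73.6) and 0.0887%. RNF212 was found in 66.8% (64.4 to 69.0) and in 0 of 4510 CHLA9 cells, where a count of 0 allows up to 0.0665% of cells with a UMI at this depth (3 cells) and the exact interval reaches 0.0818%. S100A10 was found in 50.8% (48.4 to 53.2) and 2.48%. At full depth the shares in TC71 and CHLA9 were 98.6% and 0.486% for MGST1, 93.2% and 0.309% for LY6K, 93.6% and 0.0442% for RNF212, and 82.4% and 8.31% for S100A10. At least 2 of the 4 markers were found in 1560 of the 1670 thinned TC71 cells (93.4%, 92.1 to 94.6) and in none of the 4510 CHLA9 cells, and all 4 in 360 TC71 cells.

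Mitochondrial genes took 9.12% of the TC71 UMIs and 7.61% of the CHLA9 UMIs, and 87 genes named as ribosomal proteins took 19.9% and 16.9%. Outside these, the long non-coding RNA MALAT1 was the most abundant transcript of TC71, at 7172 CPM, well below its 16804 CPM in CHLA9. EEF1A1, the elongation factor that brings tRNA to the ribosome, followed at 5955 CPM, then PTMA at 5054 CPM and the chaperone HSP90AA1 at 4998 CPM. FTL and FTH1, the light and heavy chains of the iron store ferritin, stood at 4810 and 3338 CPM in TC71 and at 1542 and 2491 CPM in CHLA9. HMGB1, ACTG1, TPT1 and TUBA1B, which code for a chromatin protein, actin, a growth-related protein and tubulin, completed the 10 highest genes, with log2 differences between the lines from -0.05 for TPT1 to 0.12 for HMGB1. In all, 5716 autosomal genes reached 20 CPM in TC71 and 6397 in CHLA9.

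Of 20 genes known as Ewing sarcoma genes, 18 reached 10 CPM in TC71 and 19 in CHLA9. Of all 31942 autosomal genes, 7858 reached it in TC71 and 8335 in CHLA9. CCND1, the cyclin D1 gene, stood at 1451 CPM in TC71 and 2511 CPM in CHLA9, CAV1, a coat protein of caveolae, at 1443 and 558 CPM, and the kinase gene JAK1 at 678 and 606 CPM. The fusion target NKX2-2, a homeobox factor, stood at 34.6 CPM in TC71 and 9.89 CPM in CHLA9, STEAP1, a surface metalloreductase, at 239 and 73.2 CPM, PRKCB, a protein kinase C, at 183 and 345 CPM, and LIPI, a lipase known as a tumour antigen, at 16.3 and 18.6 CPM. A gene counted as apart when the lines differed at least 4-fold. Over all 8931 autosomal genes that reached 10 CPM in either line, 325 (3.64%) were higher in TC71 by this limit and 379 (4.24%) lower, and the median log2 difference was -0.22. Which direction held more genes turned with the scaling, with 392 higher and 330 lower by median of ratios, which moved the median by 0.16, and 437 and 398 outside mitochondrial and ribosomal protein genes. Of the 20 Ewing genes, 1 was higher, STEAP2 at 76.8 against 18.9 CPM. Another 2 were lower in TC71, EZH2, the H3K27 methyltransferase, at 95.6 against 442 CPM, and CCK. The median log2 difference of the 20 was -0.37.

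CCK, which codes for the peptide hormone cholecystokinin, was the widest gap in the Ewing list. TC71 had 49 UMIs or 0.840 CPM, against 1671 CPM in CHLA9, which is 1991-fold lower. At equal depth it was found in 98.98% of CHLA9 cells and 0.659% of TC71 cells.

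The neuronal list was split in TC71. UCHL1, a neuronal ubiquitin hydrolase, stood at 525 CPM in TC71 and 310 CPM in CHLA9, and SYT1, the calcium sensor of synaptic vesicles, at 222 and 133 CPM. NEFL, the light neurofilament chain, had 51.5 CPM in TC71 (49.7 to 53.4) and 3 UMIs in CHLA9, and GAP43, a growth cone protein, had 31.3 CPM (29.9 to 32.7) and 1 UMI. NEFM, the medium chain, stood at 12.05 against 1.62 CPM, and DPYSL3 at 13.2 against 2.89 CPM. These last 4 were at least 4-fold higher in TC71, of 8 list members with 10 CPM in one line, and 1 member, the RNA-binding protein gene ELAVL3, was lower at 0.223 against 21.2 CPM. Other defining neuronal genes were near absent in TC71, with 0.377 CPM of TUBB3, 3 UMIs of SNAP25 and 1 UMI each of CHGA and STMN2. In all, 8 of the 19 measured members were at or under 1 CPM. Of all 31942 autosomal genes, 12101 reached 1 CPM in TC71 and the others were under it.

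The neural progenitor and neural crest genes that stood apart between the lines were lower in TC71. Of 7 progenitor genes with 10 CPM in one line, 3 were at least 4-fold lower and none higher. These were SOX11 at 62.5 against 253 CPM, NES, the nestin gene, at 1.13 against 12.97 CPM, and OTX2, a forebrain homeobox factor, at 3 UMIs against 30.7 CPM. SOX4 stood at 98.6 and 274 CPM, and SOX2 at 73.4 and 121 CPM. Of 9 neural crest genes, 5 were lower and none higher by 4-fold. TWIST1 stood at 66.7 CPM in TC71 and 273 CPM in CHLA9, MSX1 at 19.0 and 257 CPM, PAX7 at 22.3 and 94.4 CPM, HAND2 at 9.97 and 87.0 CPM, and the nerve growth factor receptor gene NGFR at 4.97 and 100.3 CPM. TFAP2A, an early crest factor, stood at 41.6 and 21.5 CPM, on the other side. SOX10, which defines migrating crest, had no UMI in TC71 and 1 UMI in CHLA9.

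Among 15 mesenchymal stromal genes with 10 CPM in one line, 2 were at least 4-fold higher in TC71 and 8 lower. The 2 higher genes were SPARC, a matrix glycoprotein, at 56.2 against 4.11 CPM and S100A4 at 15.03 against 2.31 CPM. VIM, the intermediate filament of mesenchymal cells, stood at 1251 and 708 CPM, and the cadherin gene CDH11 at 96.0 and 149 CPM. The lower genes were mostly collagens and other matrix genes. COL1A2 had 2 UMIs in TC71 and 203 CPM in CHLA9, COL1A1 stood at 10.2 and 56.0 CPM, COL5A1 at 4.35 and 30.4 CPM, COL6A1 at 3.102 and 25.1 CPM, COL6A2 at 2.40 and 16.9 CPM, and fibronectin (FN1) at 5.501 and 39.7 CPM. PDGFRB, a growth factor receptor of stromal cells, stood at 3.62 and 23.2 CPM, and DCN, the decorin gene, at 2.86 and 13.6 CPM. Of 12 pluripotency genes, LIN28B, which blocks let-7 processing, reached 10 CPM, at 54.2 CPM in TC71 and 14.1 CPM in CHLA9, while POU5F1 and NANOG had 6 and 14 UMIs in TC71.

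**Figure D1:**
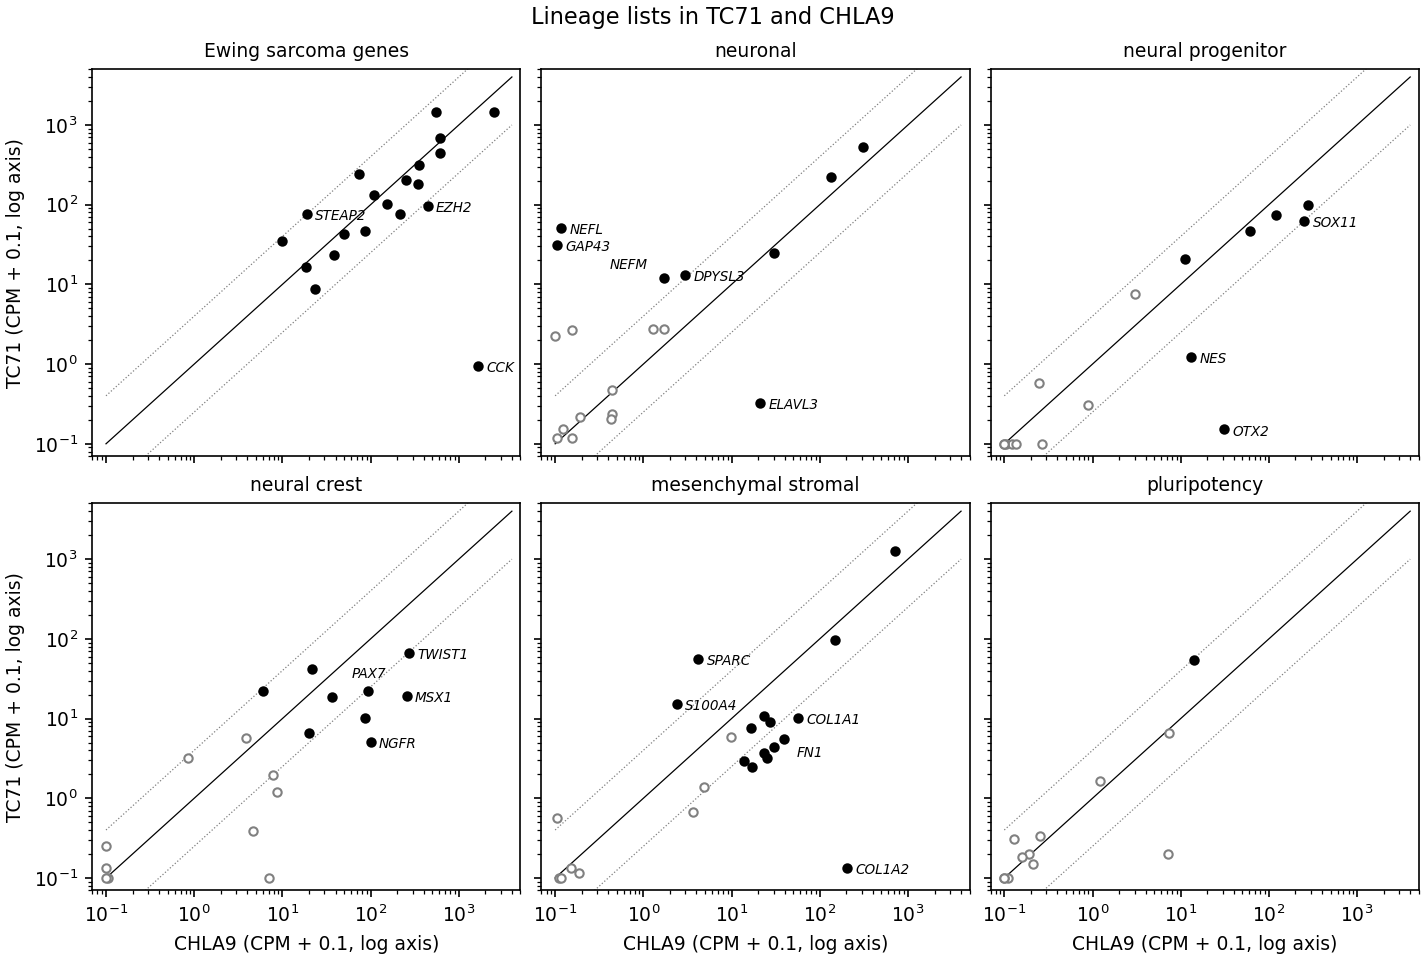
Summed level of each list member in CHLA9 (x axis) and TC71 (y axis), both as CPM plus 0.1 on log axes, for the Ewing sarcoma list and 5 lineage lists. Filled points reach 10 CPM in one line, the solid line marks equal levels and the dotted lines 4-fold differences. Of the filled points, all but 3 of the 20 Ewing genes lie between the dotted lines, while 5 of 9 neural crest and 8 of 15 stromal genes lie below them.

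Lists of 7 other tissues held 71 genes, and 57 of these were at or under 1 CPM in TC71. Only 3 reached 10 CPM in TC71, KRT18, a keratin, at 296 CPM (118 CPM in CHLA9), TNNT1, the slow skeletal troponin T, at 152 CPM (189 CPM in CHLA9) and LCP1, an actin bundler of blood cells, at 24.0 CPM (8.83 CPM in CHLA9). Of all 31942 autosomal genes, 12101 reached 1 CPM in TC71 and 7858 reached 10 CPM. The defining markers CDH1, PTPRC, PECAM1, MYOD1, MLANA and ALB had at most 5 UMIs each in the whole TC71 library. Of the bone and cartilage list, ALPL, the alkaline phosphatase gene, was at least 4-fold lower, at 9.82 against 69.6 CPM. The epithelial and muscle lists had 1 gene each and the haematopoietic list 2 with 10 CPM in a line, none of them 4-fold apart, and the endothelial, melanocyte and endoderm lists had 0. Below that level, genes went both ways, and those given here were named after their values were seen. The endothelial claudin gene CLDN5 stood at 8.52 against 0.806 CPM and GATA4, a factor of heart and endoderm, at 3.79 CPM against 1 UMI. In the other direction, SP7 of the bone and cartilage list had 1 UMI in TC71 against 6.46 CPM in CHLA9. Of the epithelial list, ESRP1 stood at 0.171 against 4.77 CPM, and KRT19 had no UMI in TC71 against 1.21 CPM.

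Metallothioneins, small metal-binding proteins, had the highest median log2 difference of the 19 lists, 3.62 over 2 genes. Both members with 10 CPM in one line were at least 4-fold higher in TC71, MT2A at 189 against 8.28 CPM and MT1X at 32.5 against 4.92 CPM. Of 6 interferon response genes with 10 CPM, 2 were higher and none lower, IFI44 at 18.1 against 4.15 CPM and IFI6 at 10.2 against 1.62 CPM. IFITM3 stood at 104 and 66.9 CPM, ISG15 at 91.7 and 46.1 CPM and IFITM2 at 75.5 and 20.7 CPM. In the retinoic acid list, the receptor gene RARA was lower at 5.06 against 34.5 CPM, while ALDH1A1, which makes retinoic acid, stood at 46.6 and 13.1 CPM, and CYP26B1, which breaks it down, at 14.1 and 19.4 CPM. Of 7 WNT genes, LEF1 was higher at 11.4 against 2.37 CPM and the receptor gene FZD2 lower at 6.77 against 38.6 CPM, with the antagonist DKK2 at 51.6 and 52.2 CPM and the receptor genes FZD7 at 27.3 and 16.95 CPM and FZD1 at 23.9 and 78.99 CPM. Of 8 NOTCH genes, NOTCH3 was lower at 8.12 against 38.03 CPM, the targets HES1 and HES4 stood at 88.7 and 42.1 CPM in TC71 and at 76.6 and 98.01 CPM in CHLA9, and the ligand DLL3 at 25.002 and 12.94 CPM. Of 6 LY6 and other anchored surface genes, LY6K was higher, and LY6E stood at 99.5 and 286 CPM and the complement regulator CD59 at 21.6 and 13.4 CPM.

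Genes detected in TC71 and near absent in CHLA9 were taken as those with at least 20 CPM in TC71 and at most 1 CPM in CHLA9. There were 65, or 1.14% of the 5716 autosomal genes with 20 CPM in TC71, and 64 of the 65 are protein-coding. These levels chose the genes and are given as a description. After MGST1, the highest were STMN4, a stathmin of the nervous system, at 162 CPM (0.794 CPM in CHLA9), LY6K, RNF212, and SMC1B, a cohesin subunit of meiosis, at 79.0 CPM (0.0514 CPM). HMGA2, an architectural chromatin protein of embryonic tissue, stood at 76.2 CPM (0.0686 CPM), PLAGL1, an imprinted zinc finger factor, at 68.9 CPM (4 UMIs, 0.0229 CPM), and DST, a linker of the cytoskeleton, at 68.0 CPM (0.406 CPM). NSD1, which methylates histone H3 at lysine 36, stood at 66.8 CPM (6 UMIs, 0.0343 CPM), PRTFDC1 at 56.6 CPM (0.211 CPM), the glycogen phosphorylase gene PYGL at 56.6 CPM (0.0857 CPM) and the translation regulator IMPACT at 55.5 CPM (0.0514 CPM).

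At equal depth, STMN4 was found in 77.1% of TC71 cells and 0.532% of CHLA9 cells, SMC1B in 52.2% and 0.0222%, and HMGA2 in 51.8% and 0.0887%. PLAGL1 was found in 48.6% and 0.0222%, DST in 43.0% and 0.355%, and IMPACT in 40.3% and 0.111%. Full depth brought SMC1B to 83.5% of TC71 cells and 0.199% of CHLA9 cells, and PLAGL1 to 84.3% and 0.0884%. At equal depth, no more than 1% of CHLA9 cells had any one of these genes.

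Of the 65 genes, 4 had no UMI in CHLA9, whose floor of 3 UMIs is 0.0171 CPM. They were named after their values were seen. DNAJC15, a mitochondrial co-chaperone, stood at 51.0 CPM in TC71, at least 2977-fold higher. The others were ANKRD18B at 28.4 CPM, RBM46, an RNA-binding protein of germ cells, at 22.04 CPM and AVPR1A, a vasopressin receptor, at 20.1 CPM. At the other edge of the rule, NCOA7 and RGS16 had 0.937 and 0.983 CPM in CHLA9, and just outside it CGAS and UTS2 had 1.00 and 1.06 CPM. S100A10, with 2.80 CPM in CHLA9, was also outside.

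Some of the 65 genes were neighbours. FUCA2, PHACTR2 and PLAGL1 follow each other on chromosome 6 between 143494812 and 144064599 of GRCh38, with gaps of 25.1 and 109 kb, and 1 gene with 10 CPM in a line, LTV1, lies between the last 2. SLC6A15 and NTS on chromosome 12 lay within 1000 kb of each other. Chromosome 6 held 9 of the 65, of 318 genes there with 20 CPM in TC71.

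The sequence before the start of a few of these genes is shown because GGAA letters are what EWSR1-FLI1 is known to bind. Of the 65 genes, 50 had a window in the RefSeq table (GRCh38.p14, first listed start), and 250 bases before the start were searched on both strands for GGAA followed at once by another GGAA. The repeat was in 2 of 50 windows (4.00%), those of RGS16 and QPCT, and in 2.99% of the windows of all 27305 genes. A single GGAA was in 94.0% and in 92.8%. The median number of matches per window was 3, both over these 50 windows and over those of all 27305 genes. The windows of MGST1 (chr12:16347395-16347644, plus strand) and PLAGL1 (chr6:144064600-144064849, minus strand) are given 5′ to 3′ on the strand of the gene, with GGAA and its complement TTCC in capitals. They hold 3 and 4 matches, and the window of DST, which is not shown, holds 1.
MGST1: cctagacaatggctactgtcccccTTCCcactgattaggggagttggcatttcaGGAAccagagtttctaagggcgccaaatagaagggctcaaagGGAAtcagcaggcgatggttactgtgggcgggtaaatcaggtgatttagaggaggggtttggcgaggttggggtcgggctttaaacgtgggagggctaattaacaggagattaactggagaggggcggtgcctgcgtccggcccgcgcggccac
PLAGL1: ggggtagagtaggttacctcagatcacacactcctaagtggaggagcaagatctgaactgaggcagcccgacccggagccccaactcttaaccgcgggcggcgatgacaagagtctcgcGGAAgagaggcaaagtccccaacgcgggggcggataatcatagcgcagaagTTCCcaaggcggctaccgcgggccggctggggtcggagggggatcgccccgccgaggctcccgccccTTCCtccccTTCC
The MGST1 window lies inside the gene span given above, chr12:16347142-16609259, because its first listed start is downstream of the start of that span. Which of the listed starts TC71 cells use is not given by counts of 3′ ends.

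The reverse rule gave 43 genes with at least 20 CPM in CHLA9 and at most 1 CPM in TC71, or 0.672% of 6397. Below CCK and COL1A2 stood PENK, which codes for proenkephalin, at 0.394 CPM in TC71 against 146 CPM, and TSHZ3, a zinc finger factor, at 0.874 against 129 CPM. CDKN2A, the gene of the cell cycle inhibitor p16, stood at 0.805 CPM in TC71 (47 UMIs, 0.592 to 1.07 CPM) against 121 CPM, and was found at equal depth in 68.1% of CHLA9 cells and 0.719% of TC71 cells. CYYR1 had 98.2 CPM in CHLA9 and no UMI in TC71, where 3 UMIs would be 0.0514 CPM, so it was at least 1911-fold lower. COL4A1 and COL4A2, the basement membrane collagens that share a start region on chromosome 13, also had no UMI in TC71, against 39.7 and 43.8 CPM.

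**Figure D2:**
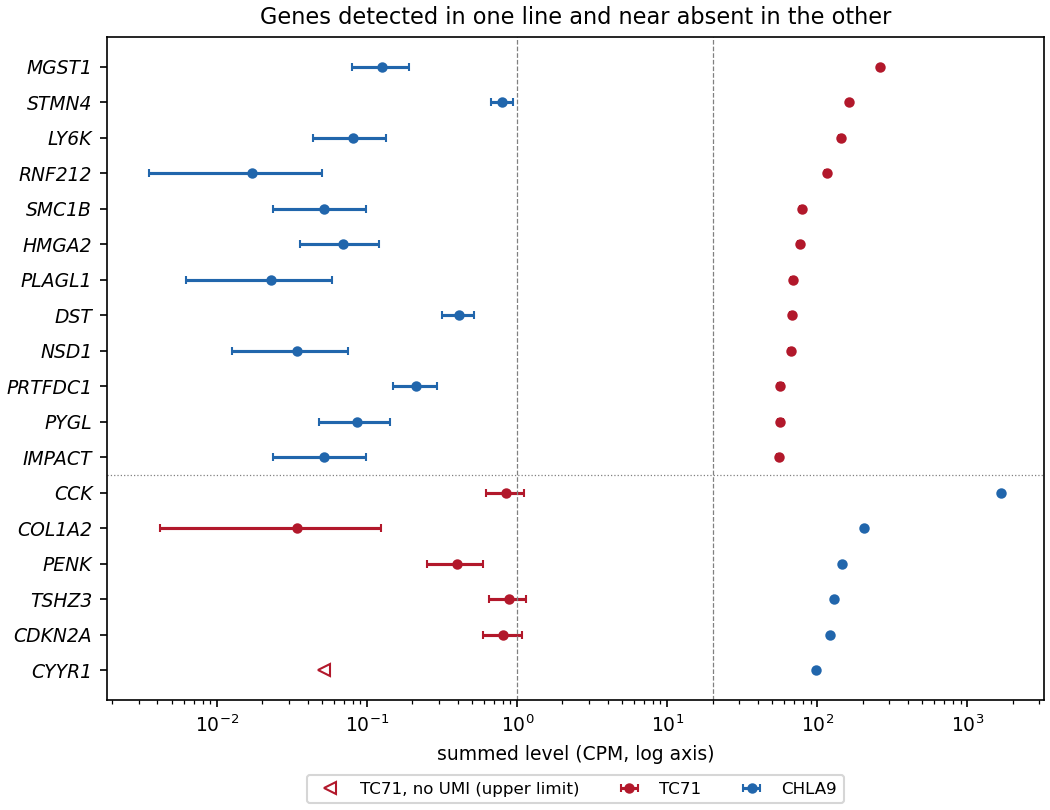
Summed level (x axis, CPM on a log axis) of the 12 highest genes detected in TC71 and near absent in CHLA9 and the 6 highest of the reverse kind. Bars are exact 95% Poisson intervals, dashed lines mark 1 and 20 CPM, and the open triangle stands for the limit that 0 UMIs allow. MGST1 stood at 263 CPM against 0.126 CPM, and CCK at 0.840 CPM against 1671 CPM.

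Variation among TC71 cells was read at 10000 UMIs per cell. The variance of a gene over its mean was divided by the median of this value over the 200 genes nearest in mean. At the top of the range this was the same block of the 200 genes of highest mean, as for RPS20 (mean 14.7 UMIs) and EEF1A1 (59.4). In both lines, the ratios of such genes do not compare genes of like level, and the part of high level in them was not tested. Cell cycle genes, histone genes and genes that followed the summed S or G2M genes were set aside. Of 5510 genes left with a mean of at least 0.2 UMIs, 46 (0.835%) had a ratio of at least 1.5. In CHLA9 76 genes passed the same limit, or 1.27% of 5999, and 16 passed in both lines. Of the 46, 10 had a mean under 0.2 UMIs in CHLA9, and 13 had a ratio under 1.5 there. All others reached 1.5 in CHLA9, and those of them outside the 16 had been set aside there as cell cycle genes. The smallest ratios inside the limit were 1.51 for EEF1A1 and RPS13, and the largest outside was 1.499 for GDF10.

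KRT18 spread most, with a ratio of 4.26 (3.13 in CHLA9). Its median was 2 UMIs per cell, its 95th percentile 10 and its maximum 38, and the top 5% of cells held 25.8% of its UMIs. The nuclear RNA NEAT1 followed at 3.71 (7.86 in CHLA9), then BNIP3 at 3.59 and UTS2, which codes for the peptide urotensin 2, at 3.06. FTL reached 3.04 and HSP90AA1 2.95 (1.78 and 2.97 in CHLA9), with every TC71 cell above 0 for both. Both were set against the block of highest genes and not against genes of like level. MT1X and MT2A had ratios of 2.78 and 2.62, with 40.8% of the MT1X UMIs in the top 5% of cells. RARRES2, the chemerin gene, had 2.55, and GRP, gastrin-releasing peptide, 2.38.

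BNIP3, a mitochondrial protein known to be induced in low oxygen, was variable in TC71 and not in CHLA9, where its ratio was 0.980 at a mean of 0.550 UMIs. In TC71 its mean was 0.941 UMIs, 44.6% of cells had at least 1, the maximum was 19, and the top 5% of cells held 41.3% of its UMIs. A few other genes are given beside it, picked after their values were seen. LDHA, lactate dehydrogenase, had a ratio of 1.83 (1.10 in CHLA9), FAM162A 1.82 (0.964 in CHLA9), DDIT4 2.12 (its mean of 0.0834 UMIs in CHLA9 was too low for a ratio there) and GAPDH 1.57 (1.21 in CHLA9). Across the 1670 cells, Spearman's rho of BNIP3 with LDHA was 0.22, and that of LDHA with FAM162A 0.22, against 0.026 and 0.053 across CHLA9 cells, as a description of cells that share 1 library. Of the 1035 pairs of variable genes, 35 had an absolute rho of at least 0.2 in TC71. GAPDH with LDHA (0.29) was among them, but BNIP3 with FAM162A was not, nor was DDIT4 with any of these genes. LDHA and GAPDH had a rho of -0.25 and -0.39 with the mitochondrial percent of the cell, and the part of cell quality in this was not tested.

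**Figure D3:**
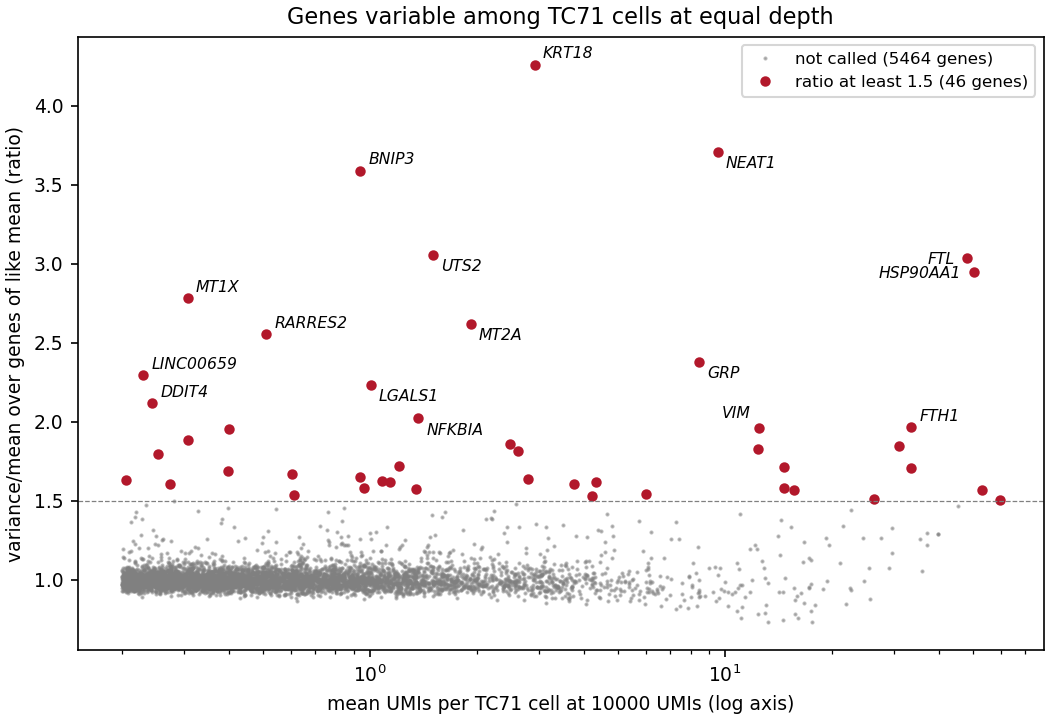
Ratio of the variance over the mean to that of genes of like mean (y axis) against the mean UMIs per TC71 cell (x axis, log axis), at 10000 UMIs per cell, for 5510 genes outside the cell cycle. Points in red are the 46 genes at or above the dashed line at 1.5, led by KRT18 at 4.26 and NEAT1 at 3.71.

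Part of the spread among TC71 cells ran by chromosome. This was noticed after seeing the data. The VIM, RPS24 and RPS13 genes, on chromosomes 10, 10 and 11, went together across cells, with a Spearman's rho of 0.45 between RPS24 and RPS13 and of 0.42 between VIM and RPS13, against 0.16 and 0.029 in CHLA9. A score was then made for each cell as the log2 ratio of its UMIs on chromosome 10 to those on chromosome 7, from 737 and 931 detected genes under 500 CPM outside ribosomal protein and cell cycle genes. The median cell had 584 UMIs on chromosome 10 and 791 on chromosome 7. The score had an SD of 0.38 over the 1729 TC71 cells, where counting error alone gives 0.087, and of 0.10 over the CHLA9 cells, where counting error gives 0.074.

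The TC71 scores fell into 2 modes. A mixture of 2 normal curves had means of -0.78 and -0.095, and only 19.1% of TC71 cells lay within 0.2 of the median score, against 96.0% of CHLA9 cells. CHLA9 had 1 mode, with a median of -0.39 that lay between those of TC71. Cut midway between the means, at -0.44, the score put 897 cells (51.9%, 49.5 to 54.3) in a group with a high share of chromosome 10 UMIs, called chromosome 10-high, and 832 in a chromosome 7-high group. The groups are ranges of a score and not cell types. There were 166 cells within 0.1 of the cut, and 313 (18.1%) between -0.65 and -0.25. Those near the cut had a median of 34401.5 UMIs, against 35114 in the chromosome 10-high and 31432.5 in the chromosome 7-high group. The median doublet score of Scrublet was 0.0776 near the cut, 0.0692 in the chromosome 10-high and 0.0599 in the chromosome 7-high group, and the part of doublets was not tested beyond leaving out the highest scores. The median mitochondrial percent was 8.74% and 9.43% in these groups, and the summed S genes stood at 4644 and 4802 CPM and the G2M genes at 9940 and 9910 CPM.

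**Figure D4:**
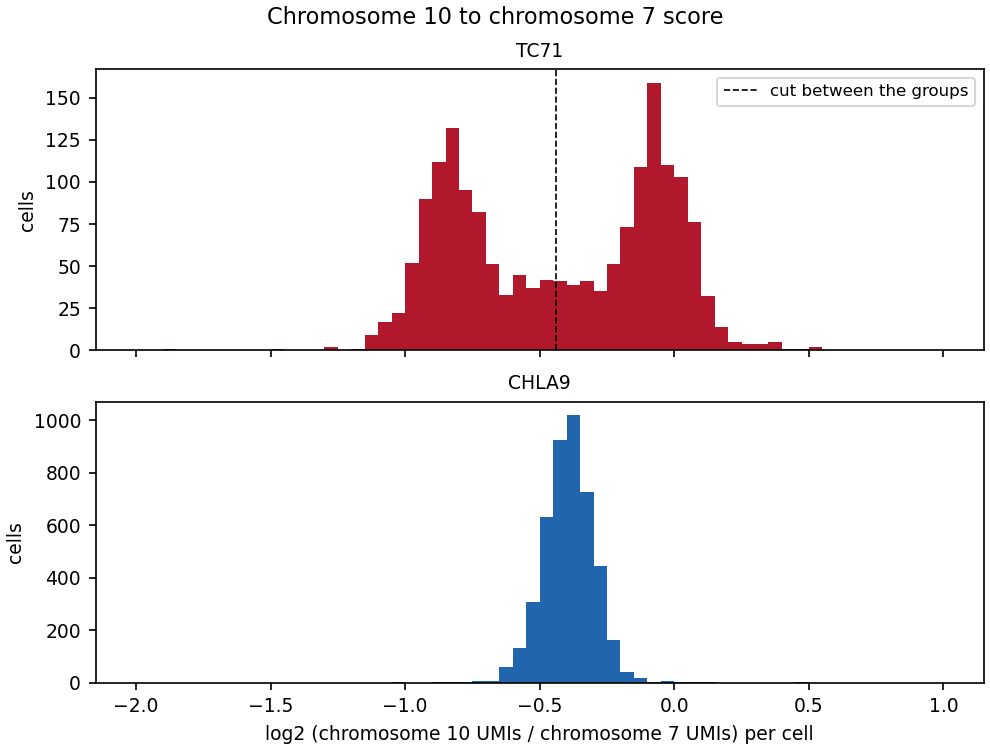
Number of cells (y axis) by the log2 ratio of chromosome 10 to chromosome 7 UMIs (x axis), for 1729 TC71 cells (top) and 4524 CHLA9 cells (bottom). TC71 has modes on both sides of the dashed cut at -0.44, and CHLA9 has 1 mode near -0.39.

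The score used genes of chromosomes 7 and 10, so those show only what was selected. Their difference was spread along the whole of both chromosomes. Over genes with at least 20 CPM in TC71, the log2 ratio of the chromosome 10-high to the chromosome 7-high group was above 0 in 227 of 231 genes on chromosome 10, with a median of 0.36, and below 0 in nearly all of the 257 on chromosome 7, where 10 were above it and the median was -0.32. All 9 windows of 15 Mb on chromosome 10 with at least 10 genes had a median of at least 0.2, and all 10 on chromosome 7 one of -0.2 or lower.

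Genes of other chromosomes were not used to form the groups, and they differed in blocks. On chromosome 16, windows from 30 Mb to the end had medians from -0.32 to -0.27, with 124 of 131 genes lower in chromosome 10-high cells, while the window from 0 to 15 Mb had a median of 0.090. On chromosome 17 the medians were between 0.050 and 0.081 up to 45 Mb and between -0.21 and -0.14 from there on, where 160 of 180 genes were lower. Chromosome 22 had a median of 0.33 from 30 to 45 Mb, with 56 of 60 genes higher, beside 0.015 before and -0.037 after. Chromosome 11 had 0.26 from 105 to 120 Mb, with 41 of 44 genes higher, 0.24 from 45 to 60 Mb, and -0.14 from 75 to 90 Mb. On chromosome 8 the medians ran from -0.28 to -0.20 between 75 and 135 Mb. Chromosome 13 had a median of -0.23 from 105 to 120 Mb, with 12 of 14 genes lower, and along chromosome 6, where the median was -0.086, 89 of 318 genes were higher. Along chromosome 5 the median was 0.074 and 180 of 255 genes were higher, with window medians from -0.11 (0 to 15 Mb) to 0.18 (120 to 135 Mb) where at least 10 genes were held. Of the 164 windows outside chromosomes 7 and 10, 126 were between -0.1 and 0.1, 4 were at 0.2 or above and 10 at -0.2 or below.

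**Figure D5:**
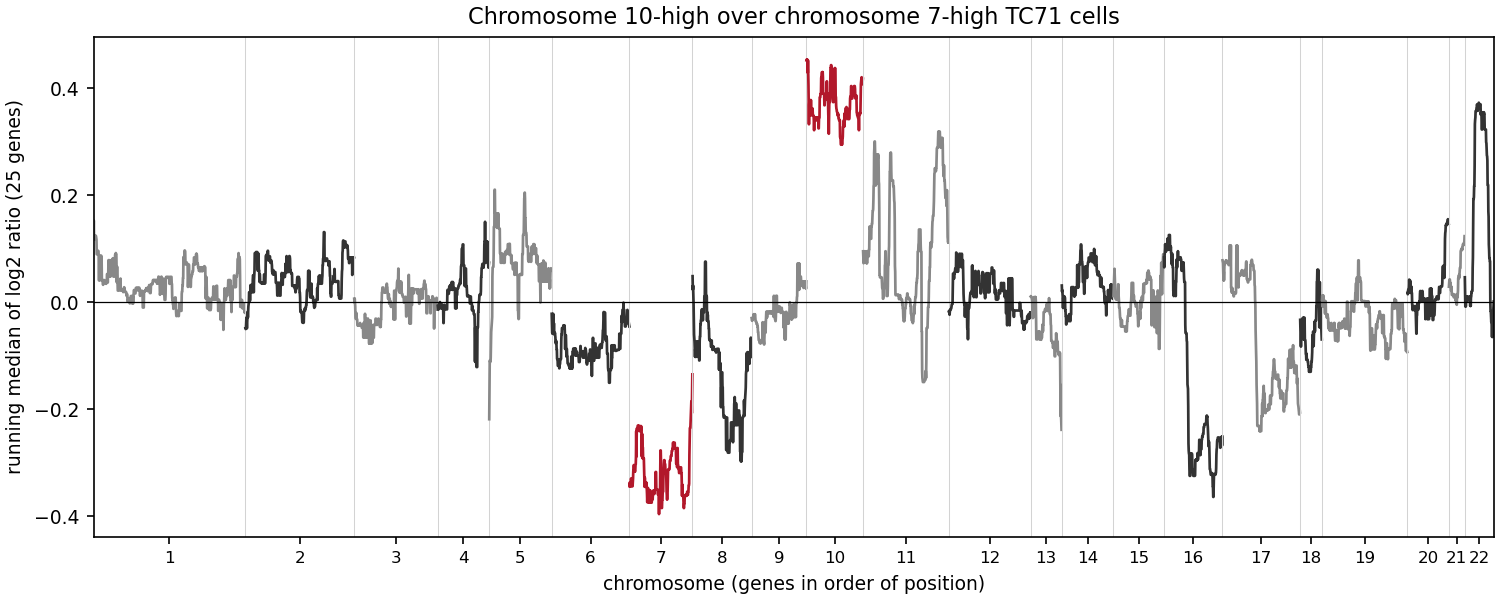
Running median over 25 genes (y axis) of the log2 ratio of chromosome 10-high to chromosome 7-high TC71 cells, with genes in order of position along chromosomes 1 to 22 (x axis). Chromosomes 7 and 10, in red, formed the groups. Of the others, blocks on 8, 16 and 17 and a shorter one on 13 lie below 0, as does much of 6 by a smaller amount. Blocks on 11 and 22 and much of 5 lie above 0.

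The blocks were then read from cell to cell against the score that had formed the groups. The share of UMIs from chromosome 16 genes beyond 30 Mb had a Pearson's r of -0.67 with the score over 1729 TC71 cells and of -0.094 over 4524 CHLA9 cells. For chromosome 22 between 30 and 45 Mb r was 0.51 and -0.057, for chromosome 11 beyond 105 Mb 0.50 and 0.041, for chromosome 17 beyond 45 Mb -0.52 and -0.080, and for chromosome 8 between 75 and 135 Mb -0.41 and 0.017. These regions were chosen after they were seen to differ between groups cut from this same score. Their r with it in TC71 is thus partly fixed by the choice, and shares of 1 cell are not independent of each other. In the 313 cells of the middle range, the chromosome 16 block stood 0.11 (log2) above the median of all TC71 cells, between 0.18 in the low and -0.19 in the high range. Chromosome 7 stood at -0.021 in the middle range, nearer the high range (-0.11) than the low (0.28). Chromosome 10 stood at -0.047, nearer the low range (-0.15) than the high (0.26). The blocks on 22, 11 and 8 were also nearer the low range, and that on 17 nearer the high. The middle cells thus did not lie evenly between the ranges, and what they are was not tested. Against CHLA9, the median log2 difference of chromosome 10 genes was 0.046 in chromosome 10-high and -0.32 in chromosome 7-high cells, and that of chromosome 7 genes -0.34 and -0.035, beside -0.12 and -0.11 over all genes. DNA was not measured, and the cause of the blocks was not tested.

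The 65 and 43 genes were chosen on the sum of both groups, so their levels in each group are a description that the choice partly fixes. Of the 65, 57 had at least 20 CPM in each group, and of the 43, 36 were at or under 1 CPM in each. MGST1 stood at 256 CPM in chromosome 10-high and 270 CPM in chromosome 7-high cells, LY6K at 145 and 141 CPM, and RNF212 at 104 and 128 CPM. S100A10 differed more, at 107 and 61.6 CPM. NKX2-2 stood at 34.5 and 34.8 CPM, FLI1 at 23.6 and 22.2 CPM and CDKN2A at 0.635 and 1.01 CPM.

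Some single genes were far apart between the groups. Of 5228 genes with at least 20 CPM outside chromosomes 7 and 10, 16 (0.306%) differed at least 2-fold, 11 higher and 5 lower in chromosome 10-high cells. The genes below were named by size after their values were seen. OLFM1, a secreted olfactomedin of the nervous system on chromosome 9, stood at 37.8 CPM in chromosome 10-high and 7.12 CPM in chromosome 7-high cells. TNFAIP6, a hyaluronan-binding protein, stood at 37.4 and 10.7 CPM, SYT14 at 40.9 and 12.6 CPM, and ASS1, which makes argininosuccinate, at 39.0 and 14.3 CPM. In the other direction, ZNF667-AS1 stood at 8.66 and 37.8 CPM, the cytokine gene IL32 at 12.6 and 47.9 CPM, PRSS21, a testis protease, at 12.2 and 45.1 CPM, HOXB9 at 21.9 and 46.5 CPM, and CLDN1, a tight junction claudin, at 38.6 and 81.0 CPM. SYT14, PRSS21, HOXB9 and ALDH1L2 were the 4 of the 65 genes near absent in CHLA9 that differed 2-fold.

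The variable genes divided by how they met the groups. The mean of RARRES2, on chromosome 7, was 0.160 UMIs in chromosome 10-high and 0.880 in chromosome 7-high cells. RARRES2 was among the genes of the score, so the forming of the groups partly fixed its direction. That of KRT18, on chromosome 12 and outside the score, had means of 3.58 and 2.20. For BNIP3 the means were 0.966 and 0.914, for FTL 48.1 and 48.2, and for MT2A 1.90 and 1.95. The rho of VIM with RPS13 was 0.25 within the chromosome 10-high and 0.15 within the chromosome 7-high group, below the 0.42 over all cells, while that of BNIP3 with LDHA was 0.24 and 0.22 within the groups.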

How the data were processed

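Droplet 3′ single-cell libraries (kit version 3.1) of TC71 and CHLA9 were analysed. The authors counted UMIs per gene and barcode with Cell Ranger 3.1.0, named in the submitters' processing notes, on hg38, and deposited these counts with no normalization for 33538 genes. Here, the cells of each line were summed and levels expressed as CPM. For folds, a gene with fewer than 3 UMIs in a line was set to 3 UMIs there. Coordinates came from GENCODE 44 by gene identifier. Cells were thinned without replacement (seed 1) with numpy 2.4.6, intervals came from scipy 1.17.1, the mixture from scikit-learn 1.9.0 and doublet scores from Scrublet in scanpy 1.11.5. Scrublet called 12 of 1729 TC71 cells (0.694%) and 350 of 4524 CHLA9 cells (7.74%), and no cell was removed for its score. Ribosomal protein genes were taken by symbol, which includes paralogs such as RPL22L1.

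The cells, the 19 gene lists and the thresholds were chosen with earlier results of these data known. Named genes were the 4 markers, the 10 highest outside mitochondrial and ribosomal protein genes, the 12 and 6 highest of the on and off genes, the 10 most variable, and of each list the 3 highest with at least 10 CPM and those 4-fold apart. Others are marked in the text as chosen after their values were seen or define a cell type or a group. Of the list members that the rule names, 1 is not reported here. Alternatives covered cell filters, doublets, scaling, thresholds, depth and the measure of spread.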

Additional observations from a re-analysis of the deposited data

How the results depend on the processing

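No paired analysis was possible because only 1 library of each line was made, so no replicate numbers exist to pair. No 4-fold difference of a named gene and no chromosome median reversed. Of the recomputed counts, shares and chromosome medians, 108 stayed within 1.5 times the count, 0.1 of the median or the interval of the share, and 12 moved. Of values for single genes and lists, 579 stayed within counting error or 1.5 times and 92 moved.

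The counts moved with their own limits. At 10 CPM in one line, 161 genes were detected in TC71 and near absent in CHLA9, and 74 the reverse; at most 0.5 CPM in TC71 left 27 of the reverse kind. Genes with 1 CPM in one line gave 1002 at least 4-fold higher in TC71 and 905 lower, and a limit of 2-fold gave 767 and 1475, with 12 lineage and Ewing list genes higher in place of 7. Median-of-ratios scaling shifted the median of all genes by 0.16 (log2) toward TC71 and gave 392 higher and 330 lower genes, and 80 genes near absent in CHLA9, which held all 65. Scaling outside mitochondrial and ribosomal protein genes gave 437 and 398, and 94 genes that held 62 of the 65. Variable genes numbered 16 at 5000 UMIs per cell, of which 14 were among the 46, 14 with a ratio of at least 2, all among the 46, and 1606 by the squared coefficient of variation, which held 42. The cause was not tested.

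The alternatives for the cell groups were chosen after seeing the data. With at most 10% mitochondrial UMIs, 56.2% of TC71 cells were chromosome 10-high. Without the cells near the cut, thinned, or without the top 8% of Scrublet scores, the share stayed inside its interval and the chromosome medians within 0.1.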

Other observations

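The TC71 library held 870 barcodes with at least 5000 UMIs that missed the limits on genes or mitochondrial percent. None was used to set the cut between the chromosome 10-high and chromosome 7-high cells. Their score had an SD of 0.42, where counting error gives 0.20, and 398 (45.7%) lay above the cut, with 131 within 0.1 of it.

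PEG3, a zinc finger gene, had no UMI in TC71 and 20.2 CPM in CHLA9. At 3 UMIs, the floor of TC71 is 0.0514 CPM, so PEG3 was at least 393-fold lower in TC71. It was named after its value was seen.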
